A study of Mus musculus with 4 samples.

Results

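The places described here are the stretches of the mouse genome where a control antibody gave a called peak. The cells were haematopoietic stem cells of mouse bone marrow, wild type for Ppp2ca, and the assay was CUT&Tag, where a transposase held by an antibody cuts adapters for sequencing into the DNA around it. The question was where PPP2CA lies in the genome, addressed with 2 libraries made with an antibody to PPP2CA (replicates 1 and 2) and 2 libraries made with immunoglobulin G (IgG, replicates 1 and 2). All 4 came from the same kind of cells with no other treatment stated, about 100000 cells per the study's design text. The labels do not say whether replicates are from different animals, so differences between them may be technical, and they give no age of the mice. Peaks of both IgG lists that shared at least 1 bp were merged into 837 regions, out of 22398 merged regions over all 4 lists. IgG 1 alone gives 561 regions and IgG 2 alone 310. These 837 IgG regions were then divided by whether a PPP2CA peak overlapped them, by whether 1 or both IgG libraries had a peak there, and by their distance to gene boundaries and chromosome ends on GRCm38. The IgG peaks chose the regions, so IgG values at them are descriptions, and a region enters only when its IgG signal was high enough to be called.

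PPP2CA is the catalytic part of PP2A, a serine/threonine phosphatase that acts together with scaffold and regulatory subunits. A non-specific IgG has no intended target, and CUT&Tag with IgG serves to show where adapters are inserted without one. The tethered transposase is also known to insert into accessible DNA, such as the start sites of active genes, whether or not the antibody's target is there.

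The deposited lists of PPP2CA 1 and 2 held 16811 and 17686 peaks, covering 12.5 and 13.6 Mb. Those of IgG 1 and 2 held 561 and 310, covering 0.219 and 0.128 Mb. A summit is the highest point of a peak, and its number of overlapping fragments was recovered from the deposited fold and p of the peak. The lowest called summit was 5 fragments in each PPP2CA list and 3 in each IgG list, and the median summit was 18 in each PPP2CA list and 4 in each IgG list. The lowest background of a list, read as its genome-wide level, was 0.784 and 0.800 fragments for PPP2CA 1 and 2, against 0.0839 and 0.0833 for IgG 1 and 2. A scaled PPP2CA to IgG ratio therefore divides each summit by the background of its own list, averages over the libraries with a peak, and sets PPP2CA over IgG. The recovered backgrounds and every scaled ratio assume that each peak was called against the local background of its own library, and whether an IgG library served as control is not stated in the labels. The IgG lists end at a −log10 q of 1.31 and 1.36, and 61.3% of the IgG 1 summits and 58.7% of the IgG 2 summits held fewer than 5 fragments. A permutation of 2 against 2 libraries has a smallest two-sided exact p of 1 in 3, so no p is given. Intervals in brackets are exact Clopper-Pearson 95% intervals, which cover counting error only.

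Sequences are shown for 5 promoters that an IgG region overlapped together with a PPP2CA peak in both libraries, since 92 of the IgG regions with a PPP2CA peak overlapped a listed promoter. Each is the RefSeq stretch from 250 bases before to 50 after a transcription start on GRCm38.p6, written 5′ to 3′ on the gene's strand. Capitals mark 4 motifs searched on both strands. These are TATAAA (the TATA box), CCAAT (the box of that name, printed ATTGG where it lies on the other strand), GGGCGG (the GC box, printed CCGCCC on the other strand) and TGACGTCA (the cAMP response element). The Amz2 (chr11:109425696-109425995, plus strand), Mrpl41 (chr2:24975049-24975348, minus strand) and Ensa (chr3:95624730-95625029, plus strand) promoters were touched by regions called in both IgG libraries. Those of Jun (chr4:95052173-95052472, minus strand) and H2ac6 (chr13:23683910-23684209, minus strand) were touched by regions called in IgG 1 only.
Amz2: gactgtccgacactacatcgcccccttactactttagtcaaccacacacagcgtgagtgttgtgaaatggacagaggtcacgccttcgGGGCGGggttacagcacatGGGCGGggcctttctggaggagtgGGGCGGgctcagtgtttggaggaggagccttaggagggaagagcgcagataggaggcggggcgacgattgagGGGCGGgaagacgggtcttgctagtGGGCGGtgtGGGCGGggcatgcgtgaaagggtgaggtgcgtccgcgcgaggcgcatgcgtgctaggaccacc
Mrpl41: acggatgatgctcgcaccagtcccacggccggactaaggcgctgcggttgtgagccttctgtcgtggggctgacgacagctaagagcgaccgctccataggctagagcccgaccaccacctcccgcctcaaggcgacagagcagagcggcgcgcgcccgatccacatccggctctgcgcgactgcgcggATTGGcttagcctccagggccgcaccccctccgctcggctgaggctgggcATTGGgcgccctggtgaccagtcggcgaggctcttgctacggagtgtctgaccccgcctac
Ensa: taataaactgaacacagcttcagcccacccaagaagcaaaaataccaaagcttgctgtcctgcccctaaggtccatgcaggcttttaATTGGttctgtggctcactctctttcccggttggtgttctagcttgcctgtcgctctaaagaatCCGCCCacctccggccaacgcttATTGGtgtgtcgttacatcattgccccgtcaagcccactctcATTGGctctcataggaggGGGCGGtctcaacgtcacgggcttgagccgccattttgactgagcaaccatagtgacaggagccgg
Jun: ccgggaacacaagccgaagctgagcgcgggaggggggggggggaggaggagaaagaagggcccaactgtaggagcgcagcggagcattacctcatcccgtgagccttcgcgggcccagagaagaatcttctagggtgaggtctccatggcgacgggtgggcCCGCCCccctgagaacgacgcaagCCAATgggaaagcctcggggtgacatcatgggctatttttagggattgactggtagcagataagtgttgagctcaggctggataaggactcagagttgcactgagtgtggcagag
H2ac6: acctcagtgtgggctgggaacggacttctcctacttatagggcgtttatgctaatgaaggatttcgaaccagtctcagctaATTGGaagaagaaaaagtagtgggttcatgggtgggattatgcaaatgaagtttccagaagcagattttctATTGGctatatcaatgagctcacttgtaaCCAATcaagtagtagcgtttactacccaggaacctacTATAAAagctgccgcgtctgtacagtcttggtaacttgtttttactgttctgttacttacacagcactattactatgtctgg
The Amz2 stretch held 6 GC boxes and no CCAAT box, and the Mrpl41 stretch 2 CCAAT boxes and no GC box. The Ensa stretch held 3 CCAAT and 2 GC boxes, the Jun stretch 1 of each, and the H2ac6 stretch 1 TATA box and 3 CCAAT boxes. TGACGTCA was in none of the 5.

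A PPP2CA peak in either library overlapped 210 of the 837 IgG regions (25.1%, 22.2 to 28.2), and 192 of these regions had one in both PPP2CA libraries. As background, PPP2CA regions covered 0.634% of the bases between the first and last positions of the chromosomes, and 0.96% of all 21771 merged PPP2CA regions had an IgG peak (1.53% of the 12631 called in both PPP2CA libraries). The remaining 627 IgG regions had no PPP2CA peak, and the nearest one lay a median of 96460 bp away. The 18 regions with a peak in only 1 PPP2CA library had low PPP2CA summits, 5 to 57 fragments in 9 regions with PPP2CA 1 and 6 to 17 in 9 regions with PPP2CA 2. The share rested on the overlap and the strength of peaks asked for: it was 44 of 837 (5.26%) where each of the overlapping stretches had to share 50% of its length, and 45 of 53 (84.9%) where every peak had a −log10 q of 5 or more.

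Whether an IgG region had a PPP2CA peak went with the height of its IgG summit. Of regions whose higher IgG summit held 3 fragments, 18 of 261 (6.90%, 4.14 to 10.7) had a PPP2CA peak, and of those with 4 fragments 28 of 264 (10.6%). The share was 25.2% of 127 regions at 5 fragments, 59.5% of 121 regions at 6 to 9 and 92.1% of 38 regions at 10 to 19. At 20 fragments or more it was 25 of 26 (96.2%, 80.4 to 99.9). The exception, chr19:58113300-58113593 inside Atrnl1, held 39 fragments in IgG 1, no IgG 2 peak, and a nearest PPP2CA peak 30002 bp away. After it, the most IgG fragments at places without a PPP2CA peak were 11 in IgG 2 inside Nos1ap (chr1:170483583-170483871), 11 in IgG 2 inside Npsr1 (chr9:24257843-24258401), 10 in IgG 1 at chr4:13633447-13633734 and 9 in IgG 1 inside Nrxn3 (chr12:90149392-90149709). All 5 were called in 1 IgG library.

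**Figure D1:**
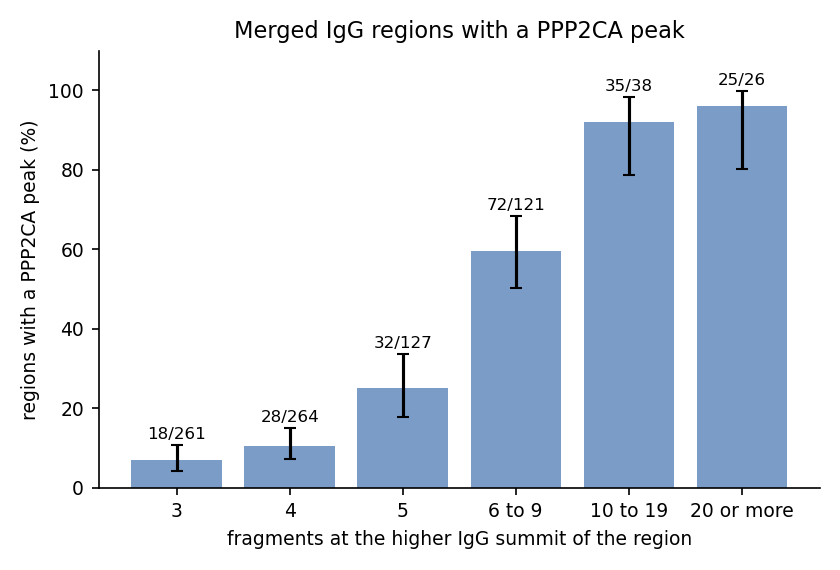
Share of merged IgG regions with a PPP2CA peak in either library (%, y axis) by the fragments at the higher IgG summit (x axis). Bars are shares with exact 95% intervals and labels give the counts, which go from 18 of 261 regions at 3 fragments to 25 of 26 at 20 or more.

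The IgG libraries differed in this share. Regions called in IgG 1 only had a PPP2CA peak in 136 of 528 (25.8%, 22.1 to 29.7), and regions called in IgG 2 only in 43 of 277 (15.5%, 11.5 to 20.3). In regions of 6 to 9 fragments it was 57 of 83 (68.7%, 57.6 to 78.4) for IgG 1 and 11 of 34 (32.4%, 17.4 to 50.5) for IgG 2. At 3 fragments the shares were 6.99% for IgG 1 and 6.67% for IgG 2.

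Few places were shared by both IgG libraries, and nearly all of these were also PPP2CA places. Both IgG libraries had a peak at 32 of the 837 regions (3.82%, 2.63 to 5.35), and 31 of the 32 (96.9%, 83.8 to 99.9) had a peak in both PPP2CA libraries. Of the 805 regions in 1 IgG library, 179 (22.2%, 19.4 to 25.3) had a PPP2CA peak. These shares are not at like IgG summits, since the higher summit had a median of 21 fragments in shared regions and 4 in the others. At 10 to 19 fragments, a PPP2CA peak was at 25 of 26 regions of IgG 1 only and at 2 of 4 of IgG 2 only. The summits of the IgG libraries lay a median of 49.5 bp apart at the 32 shared regions. The exception was chr9:99072633-99073459, inside Pik3cb, which encodes a catalytic subunit of phosphoinositide 3-kinase. It held 3 and 4 fragments in IgG 1 and 2, the nearest PPP2CA peak was 7972 bp away, and the nearest gene boundary 34231 bp.

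The 31 shared places fell on both sides of an empty stretch of the scaled ratio. In 15 regions the ratio was 0.208 to 0.984 (median 0.276), and in 16 it was 3.12 to 10.5 (median 7.20), with no region between. Since the regions were chosen by their IgG peaks and divided by this ratio, these values are a description. The low-ratio places had 57 to 5349 and 45 to 5362 fragments in PPP2CA 1 and 2, against 17 to 2701 and 11 to 2733 in IgG 1 and 2. The high-ratio places had 270 to 2010 and 250 to 2258 fragments in the PPP2CA libraries, against only 7 to 28 and 5 to 17 in the IgG libraries.

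The low-ratio places lay away from protein-coding gene boundaries. Of the 15, none was within 1 kb of a protein-coding gene boundary or of an snRNA gene, and 14 were more than 10 kb from every protein-coding boundary. The highest was chr2:98666554-98667307, with 5349 and 5362 fragments in the PPP2CA libraries against 2701 and 2733 in the IgG libraries, a ratio of 0.208. The nearest protein-coding boundary was that of Lrrc4c, 1034882 bp away, and the nearest gene of any type the lncRNA Gm33780. At chr14:19417219-19417895 the PPP2CA libraries held 602 and 598 fragments and the IgG libraries 275 and 315. At chr9:35305246-35305589, 2134 bp from the lncRNA Gm33838, they were 724 and 682 for PPP2CA and 326 and 327 for IgG. All 3 places had IgG summits of about the same height in each library and PPP2CA summits about equal to each other.

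A run of 6 such places stood at the assembled start of chromosome 9. They lay between 3000303 and 3035241, a stretch of 34939 bp, and each had a peak in all 4 libraries. The first, chr9:3000303-3001528, began 303 bp from the 3 Mb position at which assembled sequence starts, and held 1447 and 1337 fragments in the PPP2CA libraries against 672 and 654 in the IgG libraries. The highest, chr9:3023452-3024656, held 2913 and 2822 for PPP2CA against 1417 and 1463 for IgG. Those at chr9:3006437-3007204 held 652 and 718 against 266 and 316, and at chr9:3017936-3018690 171 and 172 against 57 and 68. The other two, chr9:3032414-3032937 and chr9:3034798-3035241, held 91 and 112 against 47 and 46, and 177 and 179 against 73 and 61. The ratio was 0.210 to 0.290 in all 6, although their summits differed widely in height. The nearest annotated gene of any type was Mir101c, and the nearest protein-coding boundary, that of Alkbh8, was 299990 bp or more away.

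On chromosome 17 a pair of IgG regions, chr17:13550707-13551263 and chr17:13551882-13553082, lay under 1 PPP2CA region with 599 and 468 fragments and held 67 and 102, and 100 and 138, IgG fragments. They neighbour the lncRNA 2700054A10Rik. Inside Cldn34d, a claudin-like gene of the X chromosome, chrX:76598607-76599130 held 57 and 45 PPP2CA fragments against 19 and 20 IgG fragments. The place chr6:29747921-29748569 lay inside a protein-coding gene, 12424 bp from the nearest boundary, that of Smo (a Hedgehog pathway receptor), with 146 and 116 against 27 and 23. At chr11:109011646-109012075 the values were 94 and 91 for PPP2CA and 17 and 11 for IgG. The highest ratio of this set, 0.984, was at chr17:39843328-39846323, 31 bp from Rn18s-rs5, a pseudogene entry with a ribosomal RNA name, with 368 and 387 against 44 and 37. A second IgG region by Rn18s-rs5, chr17:39848425-39848748, had a peak in IgG 2 only, with 220 and 220 PPP2CA fragments against 29.

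The high-ratio places lay mostly at snRNA genes or protein-coding gene boundaries. Of the 16, 10 were within 1 kb of an snRNA gene and 7 within 1 kb of a protein-coding gene boundary, with some counted in both. There were 4 more than 10 kb from every protein-coding boundary. Of the PPP2CA regions without an IgG peak, 0.322% were near an snRNA gene, 60.3% at a boundary and 21.6% more than 10 kb from one. The small nuclear RNAs are short non-coding RNAs, most of which build the spliceosome. At Rnu1a1, a gene of the U1 RNA, the region chr11:87423086-87423711 held 1537 and 1836 PPP2CA fragments against 22 and 17 IgG fragments. At Rnu2-10, a gene of the U2 RNA, chr11:101658395-101659543 held 1831 and 2223 against 28 and 17. The highest ratio, 10.5, was at the snRNA gene Gm25313 (chr9:65195600-65196505), with 2010 and 2258 against 28 and 15. At Rnu12, the U12 RNA of the minor spliceosome, chr15:83149729-83150178 held 742 and 875 against 15 and 8. A boundary of the protein-coding gene Poldip3 lies 351 bp from the same region. IgG fragments at these 4 places were fewer than at any of the chromosome 9 places, while PPP2CA fragments lay within the range of those places.

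Further snRNA places followed the same pattern of PPP2CA summits far above the IgG summits. In the stretch of chromosome 11 within Tex14 that holds Rnu1a1, regions called in both IgG libraries lay at Rnu3b4 (983 and 1131 PPP2CA fragments against 20 and 12 IgG fragments), Rnu3b3 (965 and 1153 against 19 and 7) and Gm23137 with Rnu3b1 (946 and 1028 against 16 and 9). U3, the RNA that the Rnu3 genes encode, acts in the processing of ribosomal RNA, although RefSeq lists these genes as snRNA. In IgG 1 only were Gm22068 (1352 and 1612 against 18), Rnu3b2 (894 and 956 against 12), Rnu3a on chromosome 10 (839 and 1060 against 22), Rnu5g, a gene of the U5 RNA (1117 and 1210 against 13), and Rnu7, whose RNA processes histone pre-mRNA (478 and 514 against 8). Over the 19 regions with a PPP2CA peak and an snRNA gene within 1 kb, the median ratio was 8.01, the highest IgG summit of any was 28 fragments, and all but 1 had a ratio of 4 or more. These IgG summits were not low among IgG regions: the median of the higher IgG summit was 16 fragments, against 4 over all 837 regions. The region with a ratio under 4, at Gm25064, had 31 and 45 PPP2CA fragments against 4 in IgG 2, a ratio of 0.997.

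**Figure D2:**
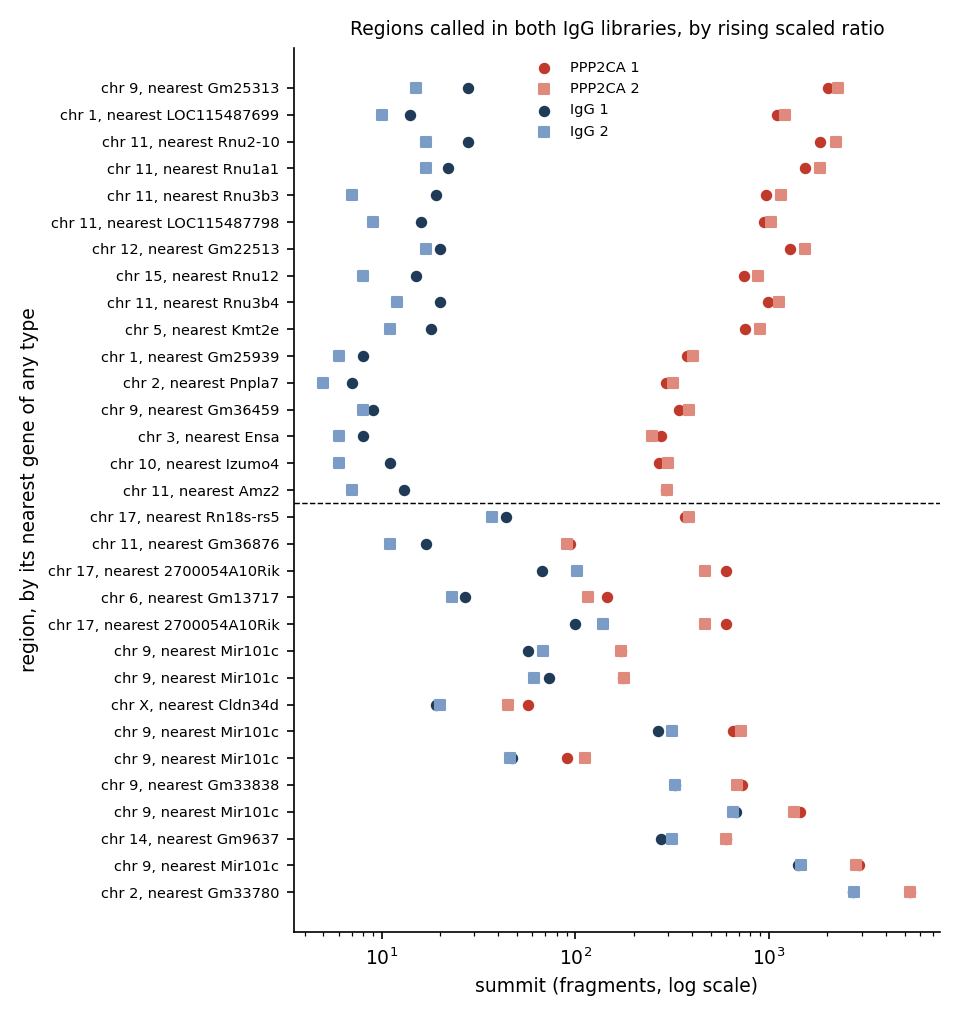
Summit fragments (x axis, log scale) in each of the 4 libraries at the 31 regions called in both IgG libraries and both PPP2CA libraries, from the lowest scaled ratio at the bottom to the highest at the top. Below the dashed line are the 15 regions with a ratio of 0.208 to 0.984, above it the 16 with a ratio of 3.12 to 10.5, whose IgG summits are 28 fragments or fewer.

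The 2 kinds of shared place also differed in how fragments fell between libraries of a group. At the 16 high-ratio places PPP2CA 2 was above PPP2CA 1 in 15, and IgG 1 was above IgG 2 in all 16. Summed over them, 46.5% (46.0 to 47.1) of the PPP2CA fragments were in PPP2CA 1, and 61.4% (56.5 to 66.1) of the IgG fragments were in IgG 1, 256 against 161. At the 15 low-ratio places PPP2CA 1 was above PPP2CA 2 in 9, and IgG 1 was above IgG 2 in 6. There 50.8% (50.2 to 51.4) of the PPP2CA fragments were in PPP2CA 1 and 49.2% (48.3 to 50.1) of the IgG fragments in IgG 1, 6108 against 6314. The chromosome 2 place supplied 5349 of the 13989 PPP2CA 1 fragments and 2701 of the 6108 IgG 1 fragments. The intervals treat fragments as independent, while the low-ratio places varied by more than counting error, so they are too narrow there. The low-ratio PPP2CA values count the shared peak of the chromosome 17 pair, with 599 and 468 fragments, once for each region of the pair. The backgrounds, for comparison, were 49.5% in PPP2CA 1 and 50.2% in IgG 1. What set IgG 1 above IgG 2 at the high-ratio places was not tested.

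At regions called in 1 IgG library and both PPP2CA libraries, PPP2CA 2 was above PPP2CA 1 in 119 of 161 regions, below it in 34 and equal in 8. PPP2CA 1 held 47.3% (46.9 to 47.6) of their PPP2CA fragments, against 49.5% of the background. Once the libraries were scaled to each other over these regions, which takes out that shift, the chi-square over degrees of freedom against counting error was 0.989. At the 15 low-ratio places the same measure was 3.09 for PPP2CA and 1.60 for IgG, and at the 16 high-ratio places 1.43 for PPP2CA and 0.287 for IgG. The 3.09 counts the shared PPP2CA peak of the chromosome 17 pair once for each region, so it does not describe 15 separate PPP2CA peaks. The libraries are therefore shown one by one, and a peak in both PPP2CA libraries is not read as evidence from separate animals.

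Over all 192 regions with peaks in both PPP2CA libraries, the scaled ratio ran from 0.137 to 10.5 with a median of 2.34. With the 18 regions of 1 PPP2CA library added the median was 2.12, and it was 0.984 in the 45 regions left at a −log10 q of 5 or more. The ratio was below 1 in 51 regions, 1 to under 4 in 94 and 4 or more in 47. Of the 51 below 1, 12 (23.5%) lay at a protein-coding gene boundary, 31 (60.8%) lay more than 10 kb from one and 1 was near an snRNA gene. Of the 94 in the middle class, 73 (77.7%) lay at a boundary and none near an snRNA gene, and of the 47 at 4 or more, 29 (61.7%) lay at a boundary and 18 (38.3%) near an snRNA gene. The 12 boundary regions below 1 were at genes such as Stau2 and Pnpt1 and had 14 to 35 fragments in PPP2CA 1. The lowest ratio, 0.137, was at chr4:3089780-3090167, with 24 and 23 PPP2CA fragments against 18 in IgG 2. IgG 1 had no peak there, and the ratio leaves out a library without a peak instead of counting it low. Ratios at regions of 1 IgG library can therefore be too low beside those at regions of both. Because a region needs at least 3 IgG fragments to be a member, a weak PPP2CA peak can only enter with a low ratio, and high ratios occur only where the PPP2CA summit is high.

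**Figure D3:**
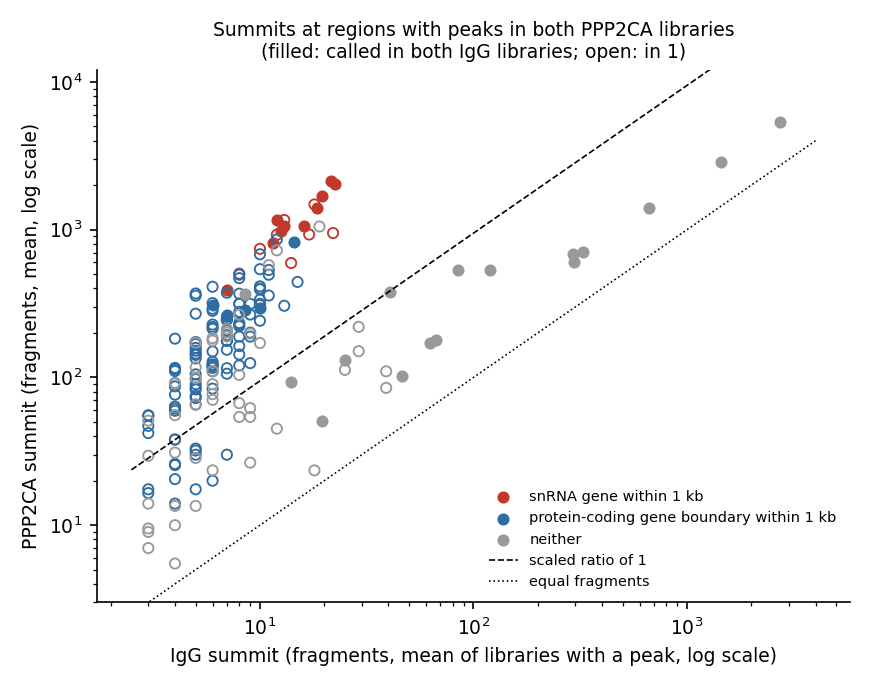
PPP2CA summit (y axis, mean fragments, log scale) against IgG summit (x axis, mean fragments of the libraries with a peak, log scale) at the 192 regions with peaks in both PPP2CA libraries. Red marks regions with an snRNA gene within 1 kb, blue the others at a protein-coding gene boundary, grey the rest, with filled points for the 31 called in both IgG libraries; the dashed line is a scaled ratio of 1 and the dotted line equal fragments. Red and blue points lie mostly above the dashed line, and the grey points with the most IgG fragments lie between the lines.

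Relative to genes, IgG regions with and without a PPP2CA peak lay in different places. A region was counted at a boundary when it came within 1 kb of the start or end of a protein-coding gene. This held for 117 of the 210 regions with a PPP2CA peak (55.7%, 48.7 to 62.5) and for 19 of the 627 without (3.03%, 1.83 to 4.69). As background, 2.96% of bases lie in such windows, and 60.3% of the 12438 PPP2CA regions without an IgG peak did. Of the regions with a PPP2CA peak, 40 lay inside a protein-coding gene further from its boundaries and 53 outside protein-coding genes, and of those without, 258 and 350. Regions more than 10 kb from every boundary made up 28.6% with a PPP2CA peak, 78.9% without, and 21.6% of the PPP2CA regions without an IgG peak. The median distance to a boundary was 410 bp with a PPP2CA peak and 48999 bp without. Near the limit of 1 kb, the last region inside lay 983 bp from Mtarc2 (5 fragments in IgG 2, no PPP2CA peak) and the first outside 1028 bp from Jund (665 and 785 PPP2CA fragments, 12 in IgG 1).

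**Figure D4:**
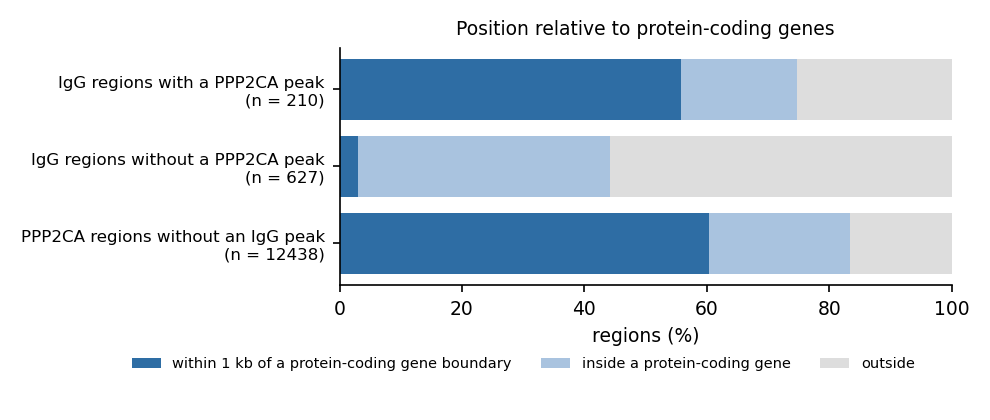
Share of regions (x axis, %) within 1 kb of a protein-coding gene boundary, elsewhere inside a protein-coding gene, or outside protein-coding genes, for IgG regions with a PPP2CA peak, IgG regions without one, and PPP2CA regions without an IgG peak. The boundary share is 55.7% in the first, 3.03% in the second and 60.3% in the third.

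Against transcription starts the difference was the same in kind. The promoter table has no entries for 1 chromosome that holds 24 of the IgG regions, which leaves 813. It also lacks some genes on the other chromosomes. At the region 291 bp from a Stau2 boundary, the nearest listed start was that of Crisp4, 1626219 bp away. Starts here are therefore the listed ones, and some distances are longer than to the true nearest start. The IgG summit lay within 1 kb of a start in 111 of 200 regions with a PPP2CA peak (55.5%, 48.3 to 62.5), and in 9 of 613 regions without (1.47%, 0.673 to 2.77). Of the 111, 58 summits were downstream of the start, 52 upstream and 1 on it. The median distance was 477 bp with a PPP2CA peak and 47171 bp without.

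**Figure D5:**
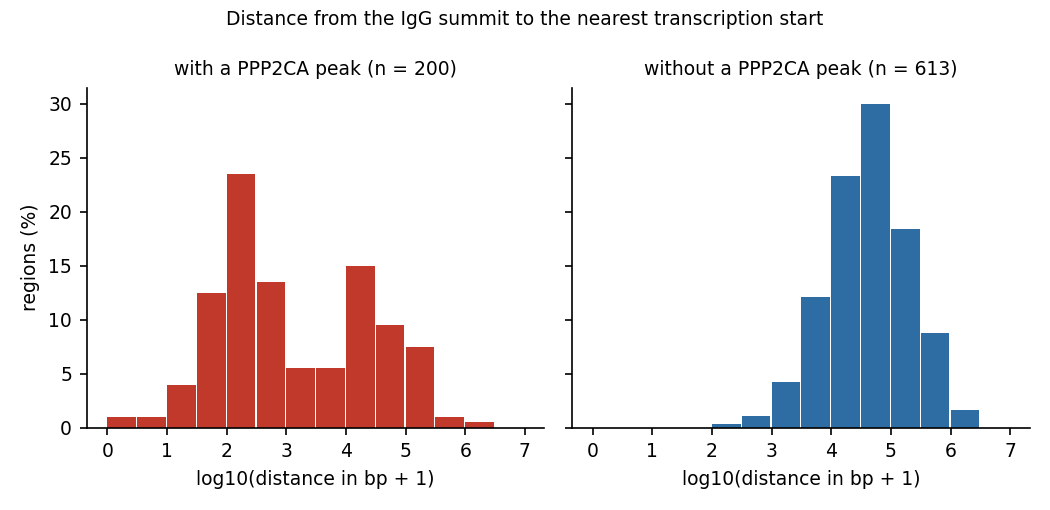
Distance from the IgG summit to the nearest listed transcription start (x axis, log10 of bp + 1) for the 200 IgG regions with a PPP2CA peak and the 613 without (y axis, % of each group). The regions with a PPP2CA peak form a near and a far group, with 55.5% within 1 kb, while those without lie almost wholly in the far group.

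Promoters under IgG regions resembled other PPP2CA promoters in base composition. In all, 94 IgG regions overlapped a listed promoter, 92 of them with a PPP2CA peak, and the other 2 were at Sgo2a and the lncRNA Gm14198. Overlaps with promoters missing from the list are not counted. The 149 promoters of 123 genes under IgG regions with a PPP2CA peak had a median GC content of 63.0% and 26 CpG. The 9226 promoters under PPP2CA regions without an IgG peak had 63.0% and 24, and all 32851 promoters 52.7% and 7. GGGCGG was found in 68.5% of the promoters under IgG regions with a PPP2CA peak, 71.3% of those under PPP2CA regions without an IgG peak and 35.7% of all promoters. CCAAT was found in 50.3%, 38.4% and 37.4%, TATAAA in 11.4%, 5.29% and 13.6%, and TGACGTCA in 3.36%, 3.95% and 1.79%, in the same order of the 3 sets. Promoters of 1 gene can overlap each other, so these shares are descriptions, and a match is not a site.

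At protein-coding genes, 171 of 21775 (0.785%) had an IgG region at a boundary, 150 of them with a PPP2CA peak at the region. The boundaries reached by both IgG libraries belonged to few genes. At Kmt2e, a chromatin regulator, chr5:23433009-23433487 held 755 and 893 PPP2CA fragments against 18 and 11 IgG fragments. At Ensa, whose phosphorylated product inhibits PP2A, chr3:95624921-95625268 held 277 and 250 against 8 and 6. At Amz2, a metallopeptidase gene, chr11:109425625-109426038 held 295 and 296 against 13 and 7. Between Mrpl41, a mitochondrial ribosomal protein gene, and Pnpla7, a lysophospholipase gene, chr2:24975202-24976056 held 295 and 320 against 7 and 5. At Alyref2, a gene of mRNA export that lies 639 bp from chr1:171502438-171502839 and its snRNA gene LOC115487699, the values were 1097 and 1214 against 14 and 10. Izumo4 and Mob3a shared chr10:80702127-80702620, with 270 and 300 against 11 and 6. In all of these the PPP2CA summits were 250 or more and the IgG summits 18 or fewer.

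Other boundary regions with a PPP2CA peak and the most IgG fragments were all called in IgG 1 only. Among them were Junb (443 and 443 PPP2CA fragments against 15 in IgG 1) and Jun (819 and 898 against 12), subunits of the transcription factor AP-1, and Klf2 (336 and 381 against 11), a zinc-finger transcription factor. Polr2a, the largest subunit of RNA polymerase II, shared a region with Slc35g3 (482 and 509 against 11), and the RNA-binding protein gene Hnrnpa2b1 shared one with Cbx3, a heterochromatin protein gene (303 and 308 against 13). Ube2d3, a ubiquitin-conjugating enzyme gene, had 478 and 589 against 11, the translation factor gene Eif5a 374 and 425 against 10, and the clathrin heavy chain gene Cltc 295 and 323 against 10. Tmem107 lay by Snord118, a gene of the U8 RNA of ribosome processing, at a region with 357 and 433 against 10. Gtf3c6, a subunit gene of the RNA polymerase III factor TFIIIC, lay by Rnu3a.

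Boundary regions without a PPP2CA peak had low IgG summits, as did the 627 regions without one as a whole. Over those 627 the higher IgG summit had a median of 4 fragments and an upper quartile of 4. The highest at a boundary were at Mtarc2, Chst11, Cd80 and Meis2 with 5 fragments each, and Rabggta had 4. Each was called in 1 IgG library, and the nearest PPP2CA peak lay between 764 bp (Rabggta) and 485693 bp (Meis2) away.

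Of the gene lists, 3 of 27 immediate-early genes had an IgG region at a boundary (11.1%, 2.35 to 29.2), namely Jun, Junb and Klf2, while 26 of the 27 had a PPP2CA region. Histone genes had one at 5 of 57 (8.77%, 2.91 to 19.3), from 3 regions, since H2ac6 with H2bc4 and H2ac15 with H2bc15 share theirs. The H2ac6 and H2bc4 region held 655 and 709 PPP2CA fragments against 10 in IgG 1. Of the PP2A genes, 2 of 26 had one (7.69%, 0.946 to 25.1), both of the B56 regulatory subunits: Ppp2r5a with 204 and 235 against 6 in IgG 2, and Ppp2r5c with 191 and 196 against 7 in IgG 1. None of 91 ribosomal protein genes had one (0 to 3.97%), and 79 had a PPP2CA region. None of 27 stem cell regulators had one (0 to 12.8%), with 14 holding a PPP2CA region, and none of the 6 genes in each of the stem cell, erythroid and megakaryocyte, myeloid, lymphoid, and stromal and endothelial marker lists did. None of 1461 olfactory and vomeronasal receptor genes had one (0 to 0.252%). The share over all protein-coding genes was 0.785%. In a wider count, where 452 of the 21775 protein-coding genes had an IgG region, 10000 had a region of both PPP2CA libraries. Of those 10000, 2.95% had an IgG region, so a count of 0 in a list of this size is not read as a result about it. Since the lists were chosen with results known, nothing is called particular to them. The marker lists say which genes hold a region and cannot check the identity of the cells.

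Seen from the PPP2CA regions, an IgG peak went with the PPP2CA summit. Of the regions called in both PPP2CA libraries with a mean summit of 5 to under 20 fragments, 13 of 4917 (0.264%) had an IgG peak. The share was 0.385% of 4941 regions at 20 to under 50, 1.78% of 1799 at 50 to under 100, 6.68% of 719 at 100 to under 200, 22.3% of 193 at 200 to under 400, 45% of 40 at 400 to under 800 and 90.9% of 22 at 800 or more. Of such regions with an snRNA gene within 1 kb, 19 of 59 (32.2%, 20.6 to 45.6) had an IgG peak, against 3 of 56 for snoRNA genes, 0 of 86 for tRNA genes (0 to 4.20%), 0 of 8 for rRNA genes and 1 of 104 for miRNA genes. The snRNA count includes the U3 genes named above, and the other types were not compared with it at like PPP2CA summits. Among regions with a mean PPP2CA summit of 400 or more, 17 of 20 with an snRNA gene (85%, 62.1 to 96.8) and 21 of 42 without (50%, 34.2 to 65.8) had one. As background, 0.322% of the PPP2CA regions without an IgG peak lay within 1 kb of an snRNA gene.

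Near chromosome ends, the chromosome 9 run made up much of the count. Within 1 Mb of the assembled start or the last known position of a chromosome lay 21 of the 837 IgG regions (2.51%, 1.56 to 3.81), against 1.58% of bases. These were 12 of the 210 with a PPP2CA peak (5.71%, 2.99 to 9.77) and 9 of the 627 without (1.44%, 0.658 to 2.71), beside 2.18% of the PPP2CA regions without an IgG peak. By the start lay 15, 8 of them with a PPP2CA peak and 6 called in both IgG libraries, all 6 on chromosome 9. By the last position lay 6, 4 with a PPP2CA peak and none in both IgG libraries. The nearest was chr4:156356813-156357212, 64 bp from it, with 66 and 42 PPP2CA fragments against 8 in IgG 1. Next were chr2:181428392-181428861, with 4 fragments in IgG 1 and no PPP2CA peak, and chr15:103239822-103240324 at Cbx5 and Hnrnpa1, with 221 and 224 against 8 in IgG 1. The last region inside the limit lay 995179 bp from an end and the first outside 1137040 bp.

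Chromosomes held unlike shares of the IgG regions. Chromosome 11 had 30 of the 210 with a PPP2CA peak (14.3%) and 39 of the 627 without (6.22%), beside 9.06% of the PPP2CA regions without an IgG peak and 4.47% of the span of all chromosomes. The X chromosome had 1.43% with and 2.71% without a PPP2CA peak. It held 2.29% of the PPP2CA regions without an IgG peak and 6.31% of the span. The Y chromosome had none of the regions with a PPP2CA peak and 6 of those without (0.957%). It held 0.0563% of the PPP2CA regions without an IgG peak and 3.41% of the span.

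Among regions called in 1 IgG library, the 5 tallest with a PPP2CA peak in both libraries had their nearest protein-coding gene boundary 2933 bp or farther away. They include the Rn18s-rs5 region with 29 fragments in IgG 2 described above. At chr12:67059280-67059631, inside Mdga2, the PPP2CA libraries held 78 and 92 fragments and IgG 2 held 39. At chr4:118547853-118548258, over the lncRNA Gm40237, the values were 122 and 98 against 39 in IgG 2, and at chr11:89081727-89082023 they were 145 and 156 against 29 in IgG 2. At chr10:3112728-3112998, 112728 bp from the assembled start, they were 101 and 124 against 25 in IgG 1. In these places the other IgG library had no called peak. Its lowest called summit anywhere is 3 fragments, but a call depends on the local background, so its fragments at these places are not known.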

How the data were processed

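CUT&Tag peak lists of 2 PPP2CA and 2 IgG libraries were used, grouped and numbered by their titles. Per the submitters' processing notes, the tools were MACS2, BWA, Trimmomatic, HOMER, ChIPseeker and deepTools, with no role given, and the build was GRCm38 or mm10. Each deposited peak has the authors' fold (a ratio over local background), −log10 p, −log10 q and a score. Total reads per library, and whether IgG served as control in peak calling, are not given in the sources used here.

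Fragments n and background b were recovered from fold = (n + 1) / (b + 1) and a Poisson tail, which gave whole numbers for 100% of peaks within a relative error of 2e-05, and were tested on simulated data. Where a region held several peaks of a library, the highest summit was used. Gene boundaries, chromosome starts (3 Mb, except Y) and last positions came from the RefSeq GRCm38.p6 table or, where further out, from the peaks; 340 entries below 3 Mb were left out and 21775 protein-coding genes used. Lists of high-signal or repeated regions were not used here. Python 3.11.15 with numpy 2.4.6, pandas 2.3.3, scipy 1.17.1 and matplotlib 3.10.9 was used.

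The regions, gene lists and alternatives were chosen with earlier results of these data known. Named were the best 12 regions in both IgG libraries, the tallest 5 in 1 IgG library with and without PPP2CA peaks, the 5 highest and lowest ratios, the 3 nearest chromosome starts and ends, and genes at boundaries by IgG fragments. The remaining low-ratio places, the further snRNA places, Jund, Stau2, Pnpt1 and the Pik3cb place were named after their values were seen.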

Additional observations from a re-analysis of the deposited data

How the results depend on the processing

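Low depth is a limit, since a called IgG summit can hold 3 fragments and weaker IgG signal elsewhere would not appear. Of 52 values under alternatives, 26 stayed within the interval, count or spread used. When peaks under a −log10 q of 5 were dropped from every list, 53 regions remained, of which 84.9% had a PPP2CA peak, 34.0% were in both IgG libraries (18 regions, of which 18, or 100%, had a PPP2CA peak), 22.6% at a gene boundary and 15.1% near a chromosome end, and the median ratio was 0.984, against 2.12 over all 210 regions. With only IgG summits of 5 or more fragments these values were 312, 52.6%, 9.94%, 100%, 31.4%, 4.17% and 2.75. A reciprocal overlap of 50% gave 5.26% with a PPP2CA peak, 50% of those in both IgG libraries and a median ratio of 0.439. The ratio without scaling was 20.04. Windows of 5 kb put 25.2% at a boundary and genes of every type 22.8%, and limits of 100 kb and 5 Mb put 0.956% and 8.12% near a chromosome end.

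Leaving out each IgG library gave 310 (without IgG 1) and 561 (without IgG 2) regions, 24.2% to 29.9% with a PPP2CA peak, 11.9% to 18.9% at a boundary, 3.21% to 3.23% near an end and a median ratio of 1.46 to 2.24. Leaving out each PPP2CA library gave 24% both times, 96.9% for regions in both IgG libraries and ratios of 2.19 to 2.23. The share called in both IgG libraries has no value with 1 IgG library. The median ratio was below 1 only under the q limit and the reciprocal overlap, which keep narrower sets of regions. No paired analysis was possible because no result comes from a test; the labels do not say that libraries of the same number share an animal, and no pairing by number was tried.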
